A study of Mus musculus with 6 samples.

Results

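The trypsin-like serine proteases of the mouse testis were followed in the testes of mice without *Prss55*. The group was set by gene name, with earlier results of these data known. It holds *Prss55* itself and the testis proteases *Prss52*, *Prss37*, *Prss21*, *Prss39*, *Prss40*, *Prss42*, *Prss44*, *Prss50* and *Acr*. All 10 genes, of 27376 gene names on the array, have at least 1 probe, and together they have 13 of its 41174 probes, with *Prss40*, *Prss42* and *Prss50* having a pair each. Total testis RNA of 3 *Prss55*-/- and 3 wild type (wt) males aged 6 to 8 weeks was hybridized with a single dye, 1 array per mouse. Both genotypes had a mixed 129Sv/C57BL/6 background. The *Prss55*-/- mice carry the disrupted gene in every cell, after homologous recombination in embryonic stem cells, and how many targeted clones stand behind the line is not given in the sources used here. All *Prss55*-/- arrays shared 1 slide, and wt arrays were on 2 further ones, so slide and genotype cannot be told apart.

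Trypsin-like serine proteases cut proteins after basic residues with a catalytic triad of histidine, aspartate and serine, and most are made as inactive precursors. The testis is known for a large number of them. Several are stored in the acrosome, the secretory vesicle of the sperm head, others are held on the germ cell or sperm surface by a glycosylphosphatidylinositol (GPI) anchor, and some have lost a residue of the triad. Many of their genes lie side by side with close relatives in clusters.

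What each probe reads decides what its signal can say, so the probes on which the results turn are shown first. Positions are those of the array files, whose headers name the mouse build mm9. The single *Prss55* probe lies at chr14:64694275-64694333 on the minus strand. Its first 29 bases are given here. The 24 capitals match, on the opposite strand, the 3′ primer with which the study cloned the full coding sequence, and the last 3 bases are the stop codon.
*Prss55* (A_51_P235977): tgCTTAGAGCCTTGTCCAACTGGAAAtaa
The probe therefore reads the end of the coding sequence. Which exons the targeting replaced, and where the probe lies relative to them, could not be read from the sequences available here. Its signal does not check the knockout, since a transcript that lacks only a part outside the probe would still be read. The study itself reported that *Prss55* RNA was absent by RT-PCR and the protein by Western blotting.

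The probe of *Prss52*, the closest member of the group on the chromosome, has 60 bases but covers 1662 bases of chromosome 14 (chr14:64729705-64731366), so it spans an intron and reads spliced RNA.
*Prss52* (A_51_P164148): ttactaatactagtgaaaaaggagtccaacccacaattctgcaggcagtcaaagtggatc

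One probe each of *Prss42* (chr9:110701761-110701820) and *Prss50* (chr9:110764897-110764956) carries the codons of the conserved motif around the catalytic aspartate, given in capitals.
*Prss42* (A_52_P441589): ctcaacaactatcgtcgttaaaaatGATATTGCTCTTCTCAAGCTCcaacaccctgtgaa
*Prss50* (A_52_P678096): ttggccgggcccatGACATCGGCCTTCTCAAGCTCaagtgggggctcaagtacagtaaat
This aspartate motif, searched as its translation in the 3 frames of the printed strand, was found in 5 of the 41174 probes of the array, or 0.0121%, and 4 of these 5 belong to serine protease genes, *Prss42*, *Prss50*, *Ctrl* and *Cela2a*. The *Prss42* and *Prss50* probes share a run of 12 bases, the longest run shared by any probes of different genes among the 10 proteases and the 9 testis paralogues described further on. A run of this length was the nearest to a shared target in the group, and cross-hybridization was not tested.

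All 13 probes were well above background on all 6 arrays, as called by the scanner software. Signals are given as log2 of the processed intensity after quantile normalization over the 6 arrays, and differences as *Prss55*-/- minus wt on this log2 scale. They were tested two-sided with limma on 28606 probes, with Benjamini-Hochberg adjustment over all of these. In RNA of whole testis, fewer cells of a type and less RNA per cell cannot be told apart. The mice are separate animals, and their number limits the precision of every value.

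*Prss55*, which encodes the GPI-anchored protease, was lower in *Prss55*-/- testis. Its log2 signal was 15.08, 14.95 and 14.93 in the *Prss55*-/- mice and 15.87, 15.77 and 16.01 in the wt mice. The highest *Prss55*-/- mouse was below the lowest wt mouse, with a gap of 0.69 between the genotypes, and the means ± SD were 14.99 ± 0.084 and 15.89 ± 0.12 (n = 3 each). The difference was -0.90 (SE 0.080, 95% interval -1.09 to -0.71, limma adjusted p = 0.0100), which leaves 53.6% of the wt signal at the end of the coding sequence. Before normalization between arrays, the processed intensity ran from 31214 to 34029 in *Prss55*-/- and from 52238 to 70800 in wt testis. With 1 array left out the call was lost in 3 of 6 cases, namely *Prss55*-/- replicate 2 (adjusted p = 0.0596), *Prss55*-/- replicate 3 (0.0698) and wt replicate 1 (0.0627), and the difference stayed between -0.96 and -0.84.

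*Prss55* was the only one of the 13 probes past an adjusted p of 0.05. Over all tested probes 1.21% passed this threshold. The genotypes did not overlap at 5 of the 13 probes, against 26.3% of all tested probes, and the unadjusted limma p was below 0.05 at 5 of the 13, against 19.1%. Of the 13 probes 9 were lower and 4 higher in *Prss55*-/- testis, and their median difference was -0.11 beside 0.0019 over all tested probes. At the 12 probes of the other 9 genes the bounds of the 95% intervals lay between -0.61 and 0.46, so none of these intervals reached a doubling or halving of signal.

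**Figure D1:**
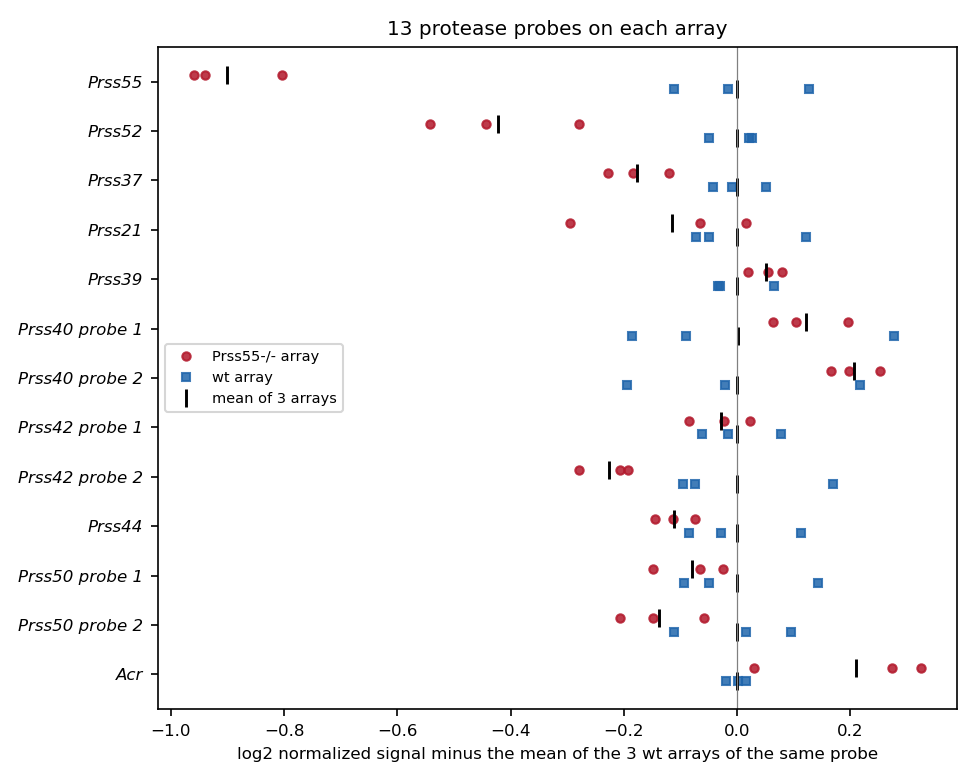
Normalized log2 signal of the 13 protease probes on each of the 3 *Prss55*-/- arrays (red circles) and 3 wt arrays (blue squares), as the distance on the horizontal axis from the mean of the 3 wt arrays of the same probe; black ticks are means. The *Prss55* circles lie about -0.90 from the wt mean with no overlap, those of *Prss52* lie about -0.42, and those of *Acr* lie above the wt arrays by a gap of 0.014.

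Among the genes of the group, *Prss52* came next in size. It is a paralogue whose probe lies 35.4 kb from that of *Prss55*. The mice gave log2 signals of 13.13, 12.96 and 12.86 in *Prss55*-/- and 13.43, 13.36 and 13.43 in wt testis. All 3 *Prss55*-/- mice were below all 3 wt mice, by a gap of 0.23. The difference was -0.42 (SE 0.077, 95% interval -0.61 to -0.23), or 74.6% of the wt signal, and its limma adjusted p of 0.0663 missed the threshold, ranging from 0.0238 without *Prss55*-/- replicate 1 to 0.226 without wt replicate 1.

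Between these probes lies that of *Prss51*, a further protease paralogue that is not one of the 10 genes and is described because of its place in the cluster, with its values known. The signals of *Prss51* were 15.07, 14.95 and 14.84 in *Prss55*-/- and 15.40, 15.35 and 15.43 in wt testis. The genotypes did not overlap. The difference was -0.44 (SE 0.070, limma adjusted p = 0.0517), just on the other side of the threshold, and the adjusted p was 0.0301 after normexp background correction and 0.181 without wt replicate 1.

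All 3 genes of the chromosome 14 cluster had lower signals in every *Prss55*-/- mouse, with *Prss55* alone past the threshold. Within an array, the log2 ratio of *Prss51* to *Prss52* was 1.97 ± 0.021 in *Prss55*-/- and 1.99 ± 0.011 in wt testis (SD, n = 3 each), a difference of -0.020 (two-sided exact permutation test, p = 0.3). The ratio of *Prss55* to *Prss52* was 2.00 ± 0.056 and 2.48 ± 0.088, a difference of -0.48 with no overlap (two-sided exact permutation p = 0.1, which is as low as groups of 3 can give). The ratio of *Prss55* to *Prss51* differed by -0.46 in the same way (exact permutation p = 0.1). So *Prss55* was further from its wt level than either neighbour. The difference in the *Prss51* to *Prss52* ratio was smaller than its SD among the *Prss55*-/- mice (0.021) but larger than that among the wt mice (0.011). With 3 mice per genotype this cannot show that the ratio was unchanged.

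Some other genes near *Prss55* differed in the opposite direction from the proteases. Of the 8 probes of 7 other genes tested within 250 kb of the *Prss55* probe, 3 passed the adjusted threshold, all higher in *Prss55*-/- testis. Over all tested probes 1.21% passed it, and 19.1% had an unadjusted limma p below 0.05. *Msra*, a methionine sulfoxide reductase, has its probe 47.5 kb away and was higher by 0.51 (SE 0.051, limma adjusted p = 0.0140). *5330427O13Rik*, at 73.2 kb, was higher by 1.13 (SE 0.15, adjusted p = 0.0348), or by 0.69 after normexp background correction (adjusted p = 0.0149). Its probe was the dimmest tested in this window, with a mean log2 signal of 7.08 in *Prss55*-/- and 5.95 in wt testis. *Pinx1*, a telomerase inhibitor on the opposite side, was higher by 0.47 (SE 0.063, adjusted p = 0.0353) at a probe -156 kb away but differed by -0.13 (adjusted p = 0.234) at its second probe, at -203 kb. These calls were lost in several settings, *Msra* in 6 of 14, *5330427O13Rik* in 6 and *Pinx1* in 9, with the direction kept in all. Around the members on other chromosomes the same windows held between 6 and 26 tested probes each, and 0 of them passed (limma), with 0 to 6 at an unadjusted p below 0.05. The other genes tested near *Prss55*, *4930578I06Rik* and *Sox7*, stood at 0.14 (adjusted p = 0.480) and -0.11 (adjusted p = 0.449).

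**Figure D2:**
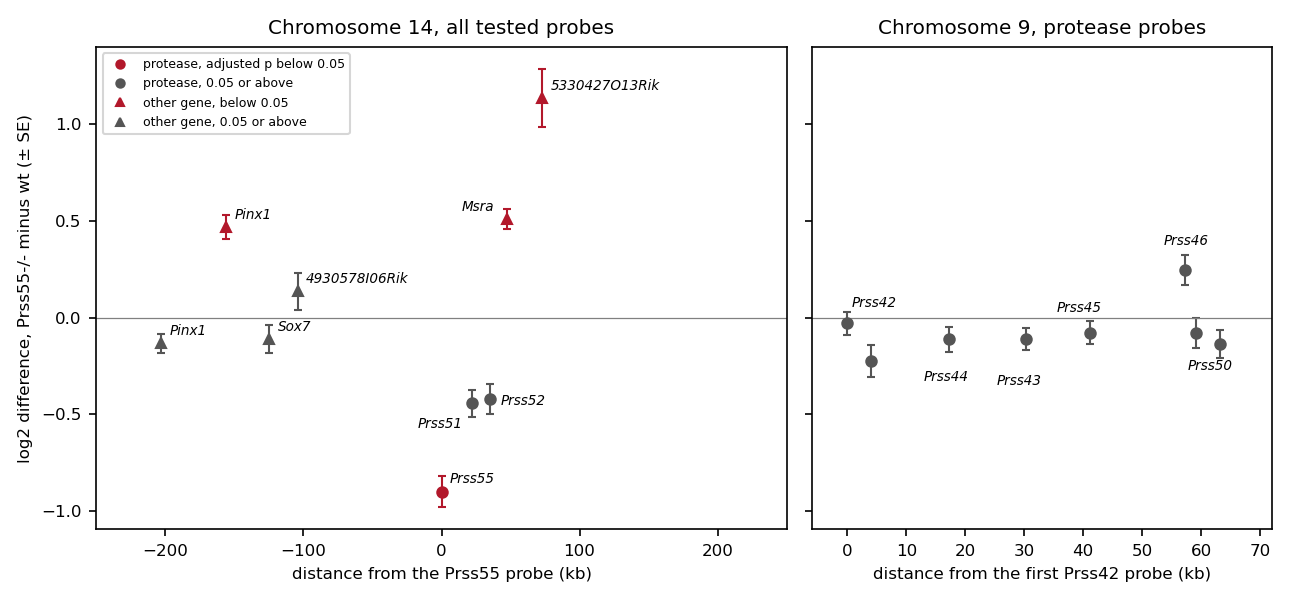
Log2 difference between *Prss55*-/- and wt testis (vertical axis, ± SE) against distance in kb from the *Prss55* probe on chromosome 14 (left, all tested probes within 250 kb) and from the first *Prss42* probe on chromosome 9 (right, protease probes). Circles are proteases, triangles other genes, and red marks an adjusted p below 0.05. On chromosome 14 the 3 proteases lie between -0.90 and -0.42 and the red triangles between 0.47 and 1.13, whereas on chromosome 9 only *Prss46* lies above 0.

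*Prss37* encodes a relative of the trypsin-like proteases that lacks a complete catalytic triad and is required for male fertility in mice. At its probe (chr6:40464853-40464912) the log2 signal was 16.75, 16.68 and 16.64 in *Prss55*-/- and 16.86, 16.82 and 16.92 in wt testis. All 3 *Prss55*-/- mice lay below the wt mice, by a gap of 0.078. The difference was small, -0.18 (SE 0.053, 95% interval -0.31 to -0.05), and did not pass (limma adjusted p = 0.158). *Prss58*, a paralogue on the same chromosome with its probe 380 kb away, differed by -0.20 (adjusted p = 0.213), also without overlap. The within-array ratio of *Prss37* to *Prss58* differed by 0.021 between the genotypes (exact permutation p = 0.9).

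Of the acrosomal proteases, *Acr* encodes acrosin, the major trypsin-like enzyme of the acrosome. At its probe (chr15:89404729-89404788) the log2 signal was 15.40, 15.64 and 15.69 in *Prss55*-/- and 15.38, 15.37 and 15.35 in wt testis. The *Prss55*-/- mice spread widely, with replicate 1 only 0.014 above the highest wt mouse. The difference of 0.21 (SE 0.084, 95% interval 0.00 to 0.41) did not pass (limma adjusted p = 0.255).

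*Prss39* and *Prss40* encode acrosomal proteases and lie next to each other on chromosome 1, with probes 49.6 kb apart. *Prss39* (chr1:34559766-34559825) had log2 signals of 15.53, 15.56 and 15.50 in *Prss55*-/- and 15.44, 15.54 and 15.44 in wt testis, which overlapped, with a difference of 0.05 (SE 0.050, adjusted p = 0.618). The pair of *Prss40* probes gave 0.12 (SE 0.12, adjusted p = 0.638) and 0.21 (SE 0.11, adjusted p = 0.350). At both *Prss40* probes wt replicate 3 lay high among the wt mice, at 12.29 against 11.83 and 11.93 at the first and above 10.59 and 10.76 at the second. The probes differed from each other by -0.086 in their response (exact permutation p = 0.3).

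*Prss21* encodes testisin, a GPI-anchored protease of germ cells. Its probe (chr17:24009860-24009919) gave log2 signals of 13.89, 14.12 and 14.20 in *Prss55*-/- and 14.12, 14.31 and 14.14 in wt testis. The genotypes overlapped, and *Prss55*-/- replicate 1 was the lowest of the 6 mice. The difference was -0.11 (SE 0.099, 95% interval -0.36 to 0.13, limma adjusted p = 0.564), and it was -0.025 without that mouse and -0.054 without wt replicate 2. *Prss41*, its paralogue with a probe at -35.9 kb from it on chromosome 17, had the same mouse lowest, at 9.60 against 10.05 to 10.28 in the other 5, and a difference of -0.19 (adjusted p = 0.609) that became 0.014 without that mouse.

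The proteases of the chromosome 9 cluster are expressed in germ cells around meiosis. They include the members *Prss42*, *Prss44* and *Prss50* and the paralogues *Prss43*, *Prss45* and *Prss46*. None passed the adjusted threshold. The 2 *Prss42* probes, 4.04 kb apart, gave unlike values. At the probe with the aspartate codons the log2 signal was 8.67, 8.61 and 8.72 in *Prss55*-/- and 8.77, 8.63 and 8.68 in wt testis, a difference of -0.03 (SE 0.058, adjusted p = 0.815) with overlapping genotypes. At the second probe the signals were 11.21, 11.20 and 11.12 against 11.57, 11.31 and 11.33, a difference of -0.23 (SE 0.082, adjusted p = 0.220) without overlap. The response of the probes differed by 0.20 (exact permutation p = 0.1, the lowest possible here).

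*Prss44* (chr9:110718941-110719000) had log2 signals of 9.64, 9.71 and 9.68 in *Prss55*-/- and 9.90, 9.70 and 9.76 in wt testis, a difference of -0.11 (SE 0.065, adjusted p = 0.402). *Prss50*, whose product is known as a testis-specific protease also found in tumours, differed by -0.08 (SE 0.077, adjusted p = 0.614) at its first probe and by -0.14 (SE 0.072, adjusted p = 0.356) at the probe with the aspartate codons, with overlap at both. *Prss43* and *Prss45* stood at -0.11 and -0.08. *Prss46* was the exception in direction. Its log2 signal was 14.62, 14.47 and 14.63 in *Prss55*-/- and 14.22, 14.44 and 14.32 in wt testis, which did not overlap, but the difference of 0.25 (SE 0.078) did not pass (limma adjusted p = 0.176). The ratio of *Prss46* to *Prss50* differed by 0.38 between the genotypes without overlap (exact permutation p = 0.1).

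**Figure D3:**
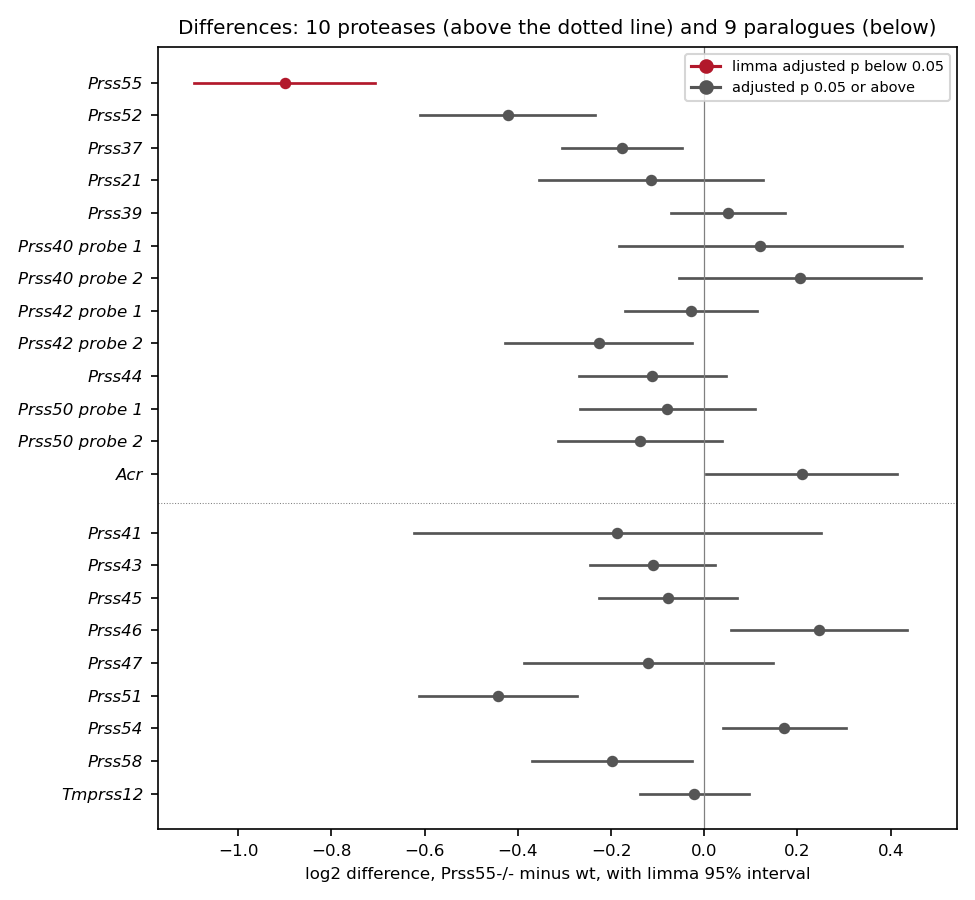
Log2 difference between *Prss55*-/- and wt testis on the horizontal axis with the limma 95% interval for the 13 probes of the 10 proteases (above the dotted line) and the brightest probe of each of 9 testis paralogues (below it). Only *Prss55* is red, for an adjusted p below 0.05, and *Prss51* and *Prss52* are the only other intervals wholly below -0.20.

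The rest of the family was examined as lists. Of 12 further testis protease paralogues, 9 were on the array under their names and tested (*Prss38*, *Prss48* and *Prss49* were not), and 0 passed (limma), 7 being lower and 2 higher with a median of -0.11. Over all tested probes 1.21% passed, and 19.1% had an unadjusted limma p below 0.05. Among these 9 paralogues there were 4, namely *Prss51*, *Prss46*, *Prss54* and *Prss58*. *Prss54*, at 0.17 (adjusted p = 0.175), and *Prss46* were the higher ones. Of all 41 other genes named *Prss* or *Tmprss* on the array, which include these 9, 26 were tested and 0 passed (limma), with 9 at an unadjusted p below 0.05, 13 lower and 13 higher, and differences from -0.44 to 0.51. The lowest of these was *Prss51*. The methods' t-test with the same adjustment also gave 0 of these genes and 0 cell type markers.

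Proteins that act with acrosin or on these proteases were also counted. Of 10 acrosin partners and acrosomal matrix genes all were tested and 0 passed (limma). There were 2 at an unadjusted p below 0.05, against 19.1% of all tested probes. The share of all tested probes past the adjusted threshold was 1.21%. The nearest to the threshold was *Zp3r*, an acrosomal matrix protein that binds the zona pellucida, at 13.10, 13.14 and 13.19 in *Prss55*-/- and 12.79, 12.91 and 12.92 in wt testis, a difference of 0.27 (SE 0.057, adjusted p = 0.0875) without overlap. Of 15 serine protease inhibitors 12 were on the array and 8 were tested. *Spint1*, a membrane-bound Kunitz-type inhibitor of trypsin-like proteases, was the only one to pass and rose at both of its probes on chromosome 2. At chr2:119074929-119074988 its log2 signal was 9.94, 9.78 and 9.80 in *Prss55*-/- and 9.24, 9.25 and 9.17 in wt testis, a difference of 0.62 (SE 0.061, limma adjusted p = 0.0140). The second probe gave 0.53 (SE 0.048, adjusted p = 0.0105), and the genotypes did not overlap at either. The genes around *Spint1* were not examined, and whether its rise is shared by its region of chromosome 2 was not tested. The first call was lost without *Prss55*-/- replicate 2 (adjusted p = 0.0607) or 3 (0.0804) and without wt replicate 1 (0.0764) or 2 (0.0602), the second without *Prss55*-/- replicate 2 (0.0636) or 3 (0.0804). *Spink2*, the inhibitor of acrosin in the acrosome, stood at -0.03 (adjusted p = 0.803).

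The profile of *Prss55* over the 6 mice was compared with that of 16023 other named genes well above background on all arrays, as the root mean square distance between log2 signals after centring each gene on its own mean. The nearest were *Igh-VJ558* at 0.049, *D430006K04* at 0.084, *Ott* at 0.084, *0610009B14Rik* at 0.093 and *Sult6b1* at 0.093. Their differences ran from -0.88 to -0.83 and none lies on chromosome 14 in the array files. *D430006K04* and *Sult6b1* lie close together, with probes at chr17:79291073-79291132 and chr17:79284243-79284302, so they are not separate places in the genome. This is a description over 6 mice that share the contrast of genotypes.

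Testis cell type markers were read beside these values, since these proteases are known from germ cells. None of the lists had a marker past the adjusted threshold (limma), which 1.21% of all tested probes passed. The counts at an unadjusted p below 0.05 stand beside 19.1% of all tested probes. The median difference was 0.08 over 8 spermatocyte markers (4 at an unadjusted p below 0.05), 0.15 over 7 round spermatid markers (5) and -0.01 over 8 elongating spermatid markers (1). The log2 of the summed normalized intensities, in which the brightest probes weigh most, of the round spermatid markers was 18.11 to 18.14 in *Prss55*-/- and 18.02 to 18.10 in wt testis, while that of the 10 proteases was 18.03 to 18.05 and 18.20 to 18.26. Most of the lower sum of the proteases was *Prss55* itself. Without it the sum of the other 9 genes was 17.83 to 17.87 in *Prss55*-/- and 17.89 to 17.92 in wt testis, 6 of these genes being lower and 3 higher. For spermatocyte markers the sum was 15.22 to 15.30 against 15.10 to 15.18. *Prm1*, *Prm2* and *Tnp1* are among the elongating spermatid markers, and their brightest probes lay at the top ranks of every array. Quantile normalization fixes the set of values at these ranks, so a difference depends on which rank each probe took. The brightest *Prm1* probe differed by -0.03 (SE 0.050), and its other probes by 0.21 (SE 0.19) and 0.20 (SE 0.17). Over 5 Leydig cell markers the median was -0.56 with 1 at an unadjusted p below 0.05, 4 being lower and 1, *Hsd3b6*, higher by 0.37. The genotypes overlapped at each of them, and *Star* ran from 10.46 to 12.68 among the *Prss55*-/- mice. The sum of the Leydig cell markers was 14.37 to 15.11 in *Prss55*-/- and 14.85 to 15.18 in wt testis. All 5 macrophage markers were lower (2 at an unadjusted p below 0.05, median -0.12), with a sum of 11.36 to 11.45 in *Prss55*-/- and 11.46 to 11.54 in wt testis. Of 6 Sertoli cell markers 4 were lower and 2 higher (3 at an unadjusted p below 0.05), with a sum of 14.98 to 15.04 against 14.93 to 14.96. The part of cell composition in the protease values was not tested.

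**Figure D4:**
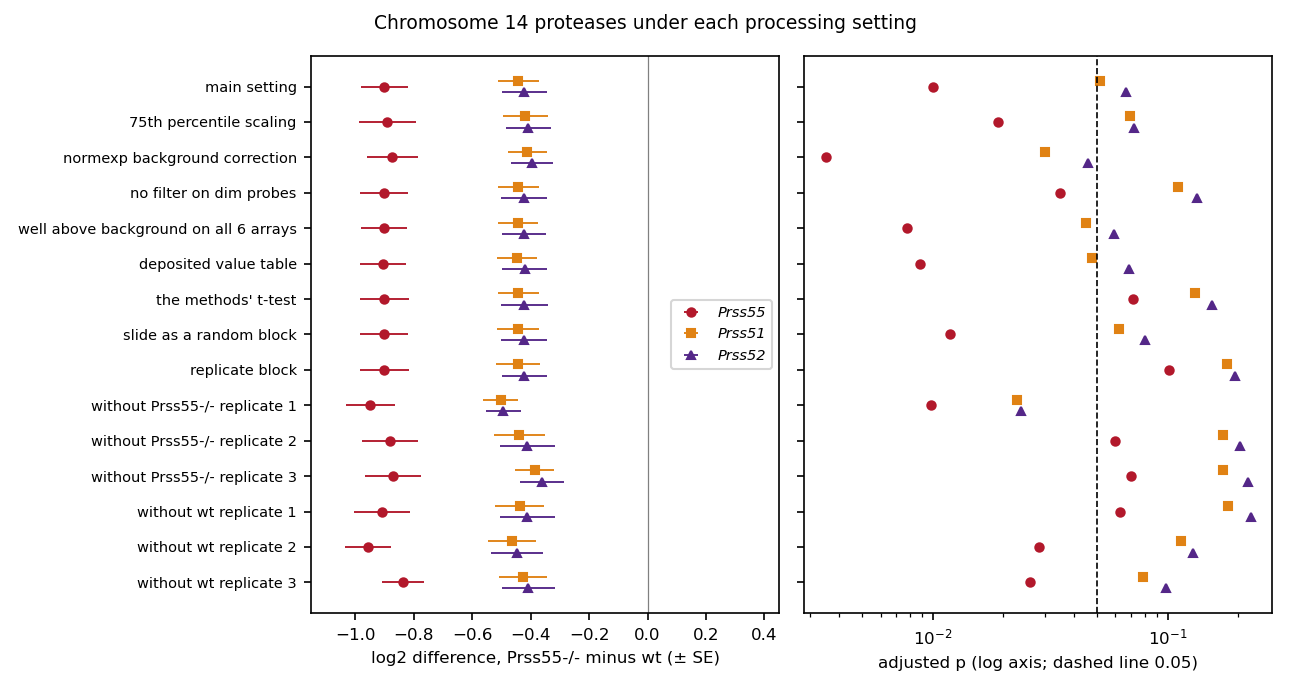
Log2 difference (left, ± SE) and adjusted p (right, log axis, dashed line at 0.05) of *Prss55*, *Prss51* and *Prss52* under the main setting and 14 alternatives. The *Prss55* difference stays between -0.96 and -0.84, but its adjusted p lies right of the line in 5 alternatives, up to 0.101, and those of *Prss51* and *Prss52* fall on either side of it.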

How the data were processed

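RNA of 6 testes was hybridized to whole mouse genome arrays and the authors extracted the scans with Agilent Feature Extraction 10.7. The deposited processed signal is a linear intensity from which the software had already removed the background. The authors also deposited log2 values normalized by quantiles. Here, control spots were dropped and outlier spots set to missing (2 missing values among tested probes), while signals below 1 were set to 1, log2 values were quantile-normalized and spots of a probe averaged. A probe entered the test if, in *Prss55*-/- or wt testis or both, all its spots exceeded background clearly on all 3 arrays. The test was limma 3.58.1 (lmFit, eBayes) in R 4.3.3. Between 69.5% and 72.9% of spots were well above background and 0 were saturated.

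The 10 genes and the lists were chosen with earlier results of these data known. All 10 were described at every probe. Other protease, inhibitor and acrosin partner genes were named if past an adjusted p of 0.05 without overlap, and also the 5 profiles nearest to *Prss55* and genes within 250 kb past the threshold. *Prss51*, *Zp3r*, *Spink2*, *Sox7*, *4930578I06Rik*, *Prss56*, *Prss22*, the cell type markers and the paralogues were named outside this rule, with their values known. The brightest probe stood for a gene in the lists. Simulated data with known changes were used to test the fit. Alternatives covered scaling, background correction, the filter, the deposited values, the methods' t-test, slide and replicate blocks, and each array left out. The study called genes at a t-test p below 0.05 and a fold change of at least 2, and named no adjustment. Here its t-test was run with Benjamini-Hochberg adjustment and no fold cut-off, so the counts are not those of the study's criterion. Within-array ratios were compared with exact permutation tests over mice. Tables were made with Python 3.11.15, pandas 2.3.3 and numpy 2.4.6, and plots with matplotlib 3.10.9. Protein and fertility data were not analysed here.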

Additional observations from a re-analysis of the deposited data

How the results depend on the processing

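The direction of every member probe was kept under all 14 alternatives, except that the difference of the first *Prss42* probe was 0.010 without wt replicate 1 (-0.060 to 0.010 with 1 array left out). Small differences moved in size without wt replicate 1, that of the first *Prss50* probe to -0.0076, the second *Prss50* probe to -0.090, *Prss44* to -0.055, the second *Prss42* probe to -0.14, the first *Prss40* probe to 0.027 and the second to 0.11, while without wt replicate 3 these *Prss40* values were 0.26 and 0.31. *Prss39* ran from 0.028 to 0.084 over all alternatives. Among the other genes named, *Prss41* turned to 0.014 without *Prss55*-/- replicate 1 (range -0.33 to 0.014) and *Tmprss12*, a paralogue at -0.02, to 0.00065 without wt replicate 1 (range -0.041 to 0.00065). The *Prss55* difference was -0.90 with the methods' t-test (adjusted p = 0.0713) and with the replicate block (adjusted p = 0.101), and -0.96 to -0.84 with 1 array left out (limma adjusted p = 0.0098 to 0.0698). The count of member probes past the threshold was 2 after normexp, with *Prss52* added at -0.39 (limma adjusted p = 0.0460), 0 with the methods' t-test, 0 with the replicate block, and 0 to 2 with 1 array left out, *Prss52* joining without *Prss55*-/- replicate 1 (-0.49). The 346 calls among all probes became 140 with no filter on dim probes, 87 with the methods' t-test, 13 with the replicate block, and 38 (without *Prss55*-/- replicate 3) to 855 (without *Prss55*-/- replicate 1) with 1 array left out. Other *Prss* and *Tmprss* calls were 1 after normexp, 1 with probes well above background on all 6 arrays, 1 with the deposited values, all *Prss51*, and 0 to 2 with 1 array left out, being *Prss51* and *Prss56* without *Prss55*-/- replicate 1 and *Prss22* without wt replicate 3. The inhibitor and partner count was 0 with the replicate block and 0 to 1 with 1 array left out, and that of cell type markers 0 to 1, being *Cyp11a1* without *Prss55*-/- replicate 1. The causes were not tested. Replicate numbers were those of the labels. The study writes of 3 pairs of mice, but the labels do not say what a pair shared or whether the numbers mark pairs. The deviations of mice with the same number correlated at -0.0543, -0.0227 and -0.112, and those of mice with unlike numbers at -0.0575 to 0.11. With 3 mice per genotype these values cannot show whether the mice were paired, so the replicate block is given as an alternative. With slide as a random block the *Prss55* difference was -0.90 (limma adjusted p = 0.0119), but no slide held both genotypes.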
